A study of Mus musculus with 10 samples.

Results

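The motile cilia genes described here are the protein-coding genes of the mouse whose symbol starts with Dnah, Dnai, Cfap, Rsph, Tekt or Drc followed by a number. Of 60 such genes in the GENCODE annotation, release M21, 58 stood among the 28871 genes of the deposited table of estimated counts. They are 28 Cfap, 14 Dnah, 8 Rsph, 5 Tekt and 3 Drc genes. Dnah7c and Cfap99 were not analysed here. No gene carried a Dnai symbol, since this annotation still uses older names for the intermediate chain genes. Of these, Dnaic1 and Dnaic2 are given apart, and Wdr63, Wdr78 and Casc1 are counted below with other dynein arm genes.

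The libraries came from total RNA of whole hippocampus, dissected from wild-type male C57BL/6J mice of 2 months. In 5 samples (numbers 3, 6, 9, 12 and 15) the mice had received Visudyne, an injectable form of the photosensitizer verteporfin, by way of the cisterna magna. In the other 5 (numbers 1, 4, 7, 10 and 13) they had received vehicle. Both groups were then exposed to red light of 689 nm through the skull, which with Visudyne ablates lymphatic vessels of the meninges. The procedure was done again 2 weeks later and tissue was taken after 2 further weeks, so that the comparison addresses the hippocampus under prolonged meningeal lymphatic dysfunction. The labels do not state that each sample is 1 animal, so a p-value here speaks of the spread among samples, which may be technical.

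Motile cilia are hair-like cell protrusions that beat. Their core, the axoneme, is a ring of microtubule doublets around a central pair, and dynein motors in outer and inner arms slide the doublets against each other. Radial spokes and the nexin-dynein regulatory complex hold the doublets in register, and filaments such as tektins line the inside of the tubules. In the brain such cilia stand in tufts on ependymal cells, the cells that line the ventricles and move cerebrospinal fluid along their walls. The hippocampus borders the lateral ventricle, so that dissected tissue can carry ependyma and pieces of choroid plexus with it. Neurons and astrocytes have a single primary cilium without dynein arms. In bulk tissue, a smaller number of ciliated cells and less RNA per ciliated cell cannot be told apart.

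Transcription factors of the RFX family and the forkhead factor FOXJ1 are known regulators of motile cilia genes, and the members' start regions were therefore searched for their core letters. RefSeq promoter windows (build GRCm38.p6, 250 bases before to 50 bases after a start) matched 47 of the 58 genes. GTTGCC, the half-site of RFX factors, stood on one strand or the other in 17 of 47 genes (36.2%), against 14.1% of 27025 genes with a window. GTAAACA, a forkhead core, stood in 4 of 47 (8.51%) against 4.05% of all genes. The paired form of the RFX motif, an inverted repeat of half-sites that can overlap a GTTGCC match, stood only in Cfap298 among the 47 (2.13%), against 0.529% of all genes. Stretches of 6 promoters are shown because these genes also carry the expression patterns described below. All lie upstream of a RefSeq start, read 5′ to 3′ on the strand of the gene, and the letters in capitals are the match, which in GGCAAC and TGTTTAC is the motif on the opposite strand.
Cfap43: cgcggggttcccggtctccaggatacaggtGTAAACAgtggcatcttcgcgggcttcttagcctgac
Cfap161: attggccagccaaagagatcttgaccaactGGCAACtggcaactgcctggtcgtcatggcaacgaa
Tekt1: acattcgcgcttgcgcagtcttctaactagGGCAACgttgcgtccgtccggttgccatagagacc
Drc1: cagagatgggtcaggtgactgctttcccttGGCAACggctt
Cfap20: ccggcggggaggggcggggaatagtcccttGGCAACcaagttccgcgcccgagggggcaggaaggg
Dnah17: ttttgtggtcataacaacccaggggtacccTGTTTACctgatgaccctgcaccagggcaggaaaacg
The stretch of Cfap43 is chr19:47837380-47837446 on the minus strand, where the forkhead core ends 49 bases before the start and 3 bases fall in an annotated Cfap43 exon. That of Cfap161 is chr7:83794870-83794935 (minus strand, 11 bases in an exon of Cfap161), with 3 half-sites close together of which 1 is in capitals. That of Tekt1, chr11:72361883-72361947 on the minus strand, is intronic in a longer Tekt1 transcript and holds a pair of half-sites, 30 and 10 bases before the start. The Drc1 stretch is chr5:30281352-30281392 (plus strand), with its half-site 6 bases before the start, and that of Cfap20 is chr8:95434928-95434993 (minus strand), with no annotated gene across it. The Dnah17 stretch, chr11:118129384-118129450 on the minus strand, is intronic in a longer Dnah17 transcript. A match is a run of letters and does not show that a factor binds there.

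Sequencing depth was 51165271 to 68895223 estimated counts per sample. CPM values divide each count by the TMM-scaled size of its library, and group values are mean ± SD with n = 5 per group. Of the 58 genes, 52 passed edgeR's default filter on low counts and were tested. The 6 that did not are Tekt2, Tekt3, Rsph6a, Dnah14, Dnah3 and Cfap77, with at most 21 counts in any library. Among them Tekt2, which encodes a filament protein of the tubule wall, had 6 to 16 counts, and Dnah3, an inner arm heavy chain, had 0 to 21. Both Dnah14 and Cfap77 were at 0 counts in some libraries. Markers of the labelled tissue were present in every library: Prox1, the granule cell transcription factor, measured 90.004 to 117 CPM, and the granule cell gene C1ql2 54.3 to 73.1 CPM.

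One library stood apart in these genes. Visudyne 12 was the highest of the 10 libraries in 31 of the 52 tested genes (59.6%), while it was highest in 14.1% of all 19093 genes tested. It reached at least 1.5-fold the mean of the other 9 libraries in 23 genes (44.2%, against 2.31% of all genes) and at least 2-fold in 10 (against 0.896%), and it lay below that mean in 8. As an index, the log2 CPM was averaged over the 52 genes in each library. The vehicle libraries 1, 4, 7, 10 and 13 had 1.44, 1.37, 1.58, 1.47 and 1.46, and the Visudyne libraries 3, 6, 9, 12 and 15 had 1.36, 1.51, 1.39, 1.95 and 1.47. The other 9 libraries thus lay within 1.36 to 1.58, with both groups interleaved, and Visudyne 12 lay 0.45 above the mean of all 10. Summed over the 52 genes it held 392 CPM, and the others held 311 to 346 CPM. The group comparison and the agreement between genes are therefore given with and without it.

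**Figure D1:**
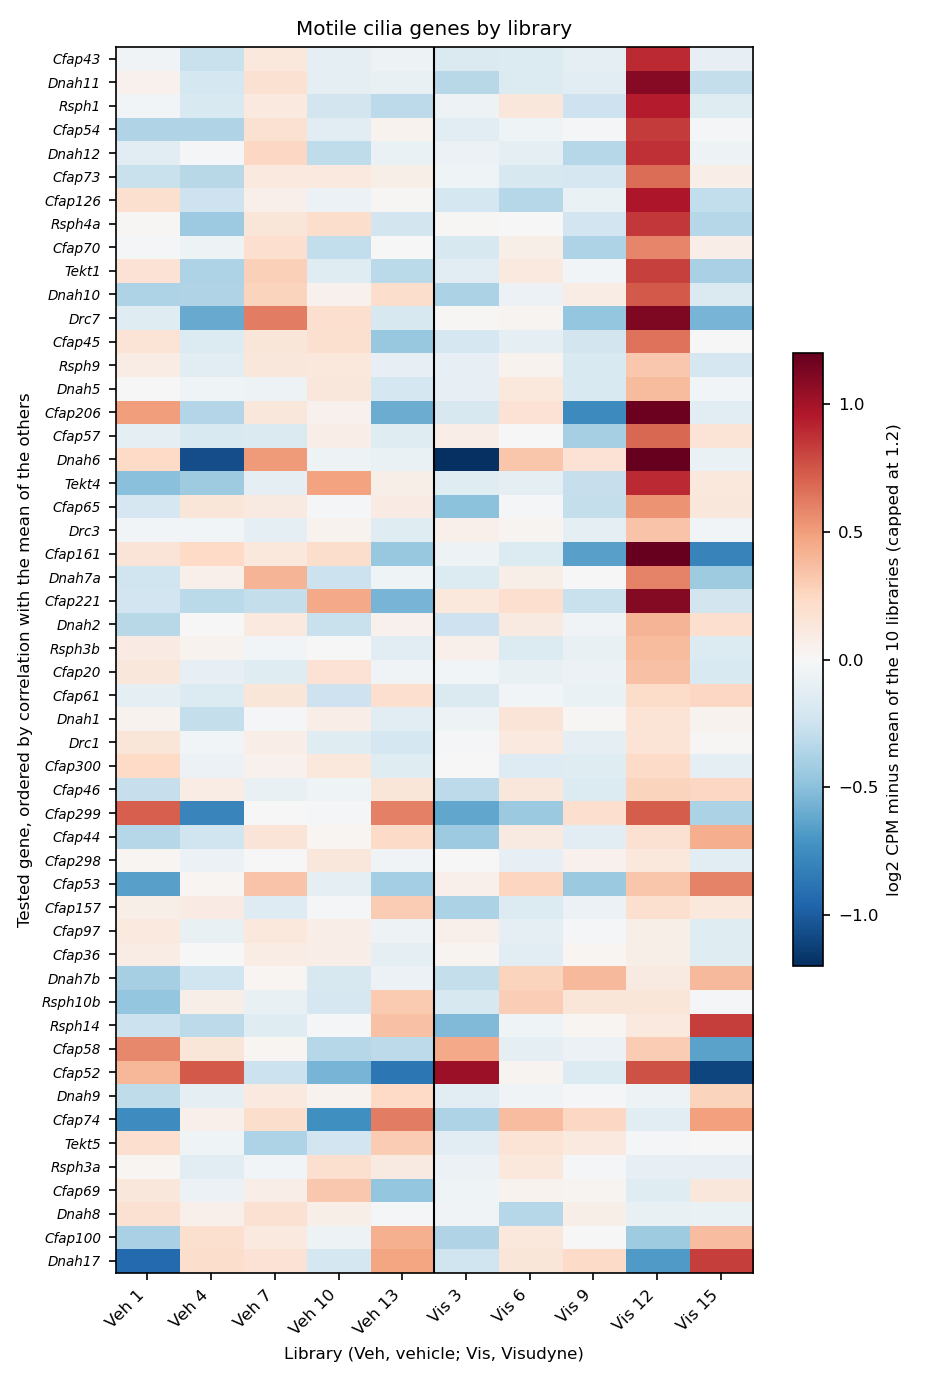
Each row is 1 of the 52 tested motile cilia genes and each column 1 library, 5 vehicle (Veh) and 5 Visudyne (Vis). Colour is the log2 CPM minus the gene's mean over the 10 libraries, capped at 1.2, and rows run from the gene most to the gene least correlated with the mean of the others. The column of Visudyne 12 is red over the upper rows, where it is the highest library in 31 of 52 genes, and the lowest rows, such as Dnah17, show another order.

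Measured per kilobase of merged exons, so that genes of different length can be compared, the levels spanned a wide range. The highest was Cfap36, a cilium-associated protein also made by cells without motile cilia, at 20.9 ± 1.28 CPM per kb in vehicle and 20.1 ± 1.37 in Visudyne libraries. It was followed by Cfap298, which takes part in the assembly of dynein arms, at 8.73 CPM per kb over all libraries, and by Cfap97 at 6.94. Of the genes listed as broadly expressed, 5 were tested (Cfap20, Cfap36, Cfap69, Cfap97 and Cfap298), and they made up 118 to 140 CPM of each library's sum. The lowest tested genes were the testis-type outer arm heavy chain Dnah8, at 0.0367 CPM per kb, and Dnah7a at 0.0593. Among the heavy chains Dnah9 was highest (2.39 CPM per kb), followed by Dnah1 (0.8003) and Dnah5 (0.769), whose levels did not differ beyond their spread.

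**Figure D2:**
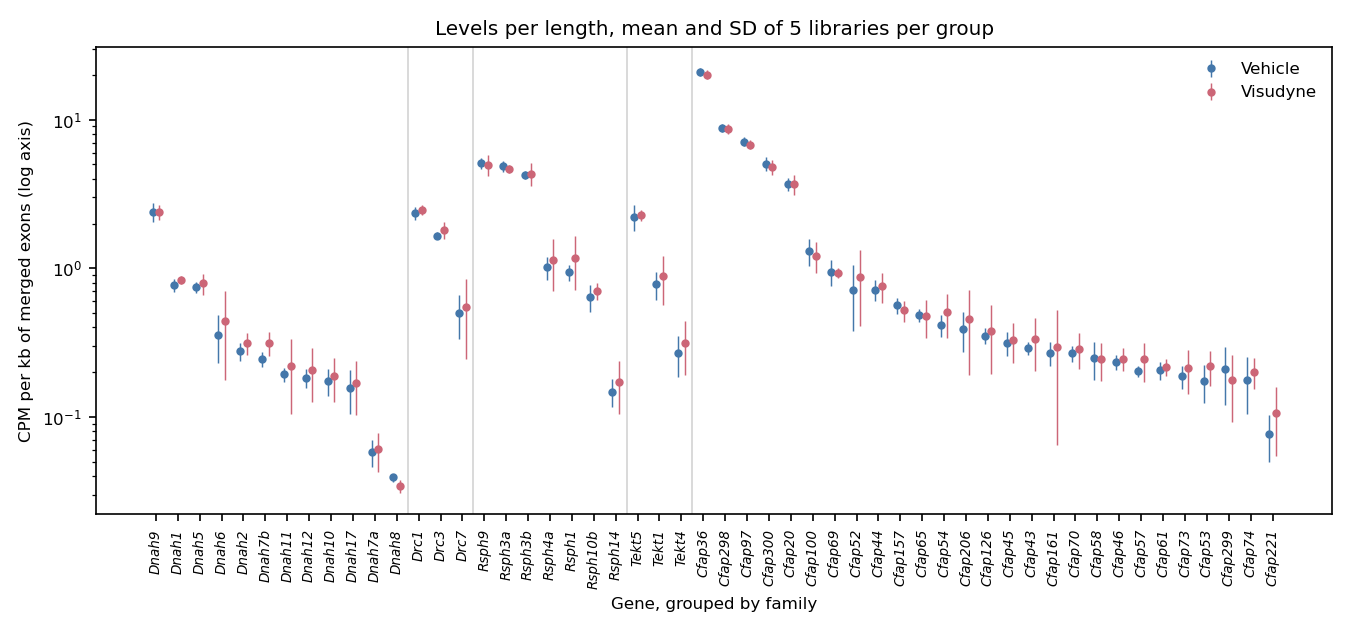
Level per length of the 52 tested genes in CPM per kb of merged exons on a log axis, grouped by family and ordered within it. Points are means and bars SDs of 5 vehicle (blue) and 5 Visudyne (red) libraries. The levels run from 0.0367 for Dnah8 to 20.5 for Cfap36, and the bars of the 2 groups overlap in all 52 genes. The SD is larger in Visudyne libraries in 41 genes, of which 28 are highest in Visudyne 12.

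Heavy chains are the motors of the arms. Of the 5 outer arm heavy chains, 2 were highest in Visudyne 12: Dnah11 and Dnah5. Dnah11 (ENSMUSG00000018581, chr12:117877982-118199043 in GRCm38/mm10) measured 2.96, 2.45, 3.24, 2.63 and 2.68 CPM in vehicle 1, 4, 7, 10 and 13, and 2.25, 2.54, 2.60, 6.09 and 2.34 CPM in Visudyne 3, 6, 9, 12 and 15. Only Visudyne 12 lay outside the range of vehicle on the high side, at 2.32-fold the mean of the other 9, and the remaining 4 Visudyne libraries were below the middle vehicle value of 2.68 CPM. Dnah5, the main motor of the outer arm, measured 11.7 ± 0.995 and 12.4 ± 1.98 CPM, with 15.5 CPM in Visudyne 12. Dnah9, its partner in the distal part of the axoneme, followed another order. It measured 30.7, 34.9, 41.1, 38.8 and 44.7 CPM in vehicle and 34.3, 36.7, 37.5, 36.3 and 45.4 CPM in Visudyne libraries. The highest were Visudyne 15 and vehicle 13, the lowest vehicle 1, and Visudyne 12 was 0.950 times the mean of the others.

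Inner arm heavy chains set the shape of the beat. Of the 9 genes 7 were tested, and 6 of the 7 were highest in Visudyne 12, at a median of 1.59-fold the other libraries, where the median over all genes was 1.0007. Dnah6 showed the widest range. It measured 5.57, 2.24, 6.77, 4.53 and 4.47 CPM in vehicle and 1.99, 5.97, 5.33, 11.5 and 4.46 CPM in Visudyne libraries, so that Visudyne 12 was highest, Visudyne 3 lowest and vehicle 4 next to it. Dnah12 (4.22 CPM) and Dnah10 (4.74 CPM) in Visudyne 12 exceeded other libraries, which held 1.79 to 2.70 and 2.18 to 3.42 CPM. Dnah1, a single-headed inner arm motor, varied little: 9.99 ± 1.003 CPM in vehicle and 10.9 ± 0.724 CPM in Visudyne libraries.

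Dnah7b was the inner arm gene that did not peak in Visudyne 12. It measured 4.17, 4.64, 5.58, 4.80 and 5.24 CPM in vehicle and 4.49, 6.62, 7.22, 5.93 and 7.20 CPM in Visudyne libraries. Visudyne 6, 9, 12 and 15 lay above all vehicle libraries, and Visudyne 3 lay within them. Its reads cannot be assigned with certainty, since 40.1% of the 31-base words in its transcripts also stand in other genes, 32.1% in Dnah7c and 27.9% in Dnah7a. Dnah7a itself, which shares 54.2% of its words, measured 0.743 ± 0.155 and 0.771 ± 0.224 CPM.

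The tethers that anchor inner arms to the doublet gave the member closest to the shared pattern. Cfap43 (ENSMUSG00000044948, chr19:47736857-47919287) measured 2.08, 1.78, 2.34, 1.98 and 2.06 CPM in vehicle libraries and 1.90, 1.91, 1.97, 4.02 and 2.00 CPM in Visudyne libraries. The 9 other libraries were within 1.78 to 2.34 CPM, and Visudyne 12 was 2.01-fold their mean. Its partner in the tether, Cfap44, was highest in Visudyne 15 instead (8.29 CPM) and held 6.96 CPM in Visudyne 12. Cfap57 and Cfap73, which bind inner arm dyneins to the doublet, were 1.72-fold and 1.80-fold the other libraries in Visudyne 12, although Cfap73 rests on 7 to 17 counts per library. Cfap100, a docking partner of Cfap73, was lowest there, at 3.79 CPM against 3.90 to 6.86 CPM.

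All 3 tested Drc genes, of the nexin-dynein regulatory complex that links the doublets, were highest in Visudyne 12. Drc7 measured 1.31, 0.947, 2.24, 1.68 and 1.27 CPM in vehicle and 1.47, 1.49, 1.05, 3.21 and 0.976 CPM in Visudyne libraries. The order was led by Visudyne 12 and vehicle 7, and the other 8 libraries of both groups were mixed. Drc3 measured 7.50 ± 0.393 and 8.17 ± 1.04 CPM, and Drc1, a base-plate subunit, 6.32 ± 0.649 and 6.61 ± 0.518 CPM. In these 2 genes Visudyne 12 exceeded the mean of the others by less than in Drc7, at 1.30-fold and 1.13-fold. Further genes of the complex carry no Drc symbol here. Of these, Tcte1 and Iqcg were highest in Visudyne 12. Ccdc65 was highest in Visudyne 3, Gas8 in vehicle 1, Iqcd in vehicle 4 and Iqca in vehicle 7.

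Radial spokes pass signals from the central pair to the arms. Rsph1 (ENSMUSG00000024033, chr17:31255019-31277383), of the spoke head, measured 1.37, 1.24, 1.53, 1.21 and 1.12 CPM in vehicle and 1.35, 1.55, 1.18, 2.74 and 1.27 CPM in Visudyne libraries. Again a single library was set off, at 2.09-fold the rest, and the others of both groups covered the same range. Rsph4a, another head protein, held 6.87 CPM in Visudyne 12 against 2.80 to 4.41 CPM, and Cfap206, of the spoke base, 2.24 against 0.557 to 1.39 CPM. Rsph9, which joins both in the spoke head, differed less (10.02 against 6.97 to 8.80 CPM). The stalk genes Rsph3a and Rsph3b share 59.4% and 58.5% of their 31-base words with each other, and their separate values (14.7 ± 1.26 and 14.1 ± 0.973 CPM, and 13.3 ± 0.810 and 13.5 ± 2.29 CPM) are uncertain to that extent.

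The central apparatus regulates the beat from the middle of the axoneme. Of its 7 genes 5 were highest in Visudyne 12, and 4 reached at least 1.5-fold. Cfap54 measured 5.10, 5.10, 7.45, 5.95 and 6.75 CPM in vehicle and 6.01, 6.30, 6.48, 11.7 and 6.47 CPM in Visudyne libraries. Without Visudyne 12 the highest library was vehicle 7 and the Visudyne libraries lay inside the vehicle range. Cfap221 was higher in Visudyne 12 by 2.48-fold but rests on 10 to 32 counts. Cfap69 and Cfap74 went below the other libraries there, at 0.883 and 0.856 times their mean.

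Of the 12 genes whose proteins bind inside the microtubules, 9 were tested and 6 were highest in Visudyne 12. Cfap161 had the largest ratio of all 52 genes. It measured 0.911, 0.966, 0.894, 0.949 and 0.586 CPM in vehicle and 0.777, 0.725, 0.506, 2.22 and 0.453 CPM in Visudyne libraries, so that Visudyne 12 was 2.95-fold the mean of the others while the remaining 4 Visudyne libraries lay within the vehicle range or below it. Tekt1 measured 1.49, 1.005, 1.61, 1.19 and 1.05 CPM in vehicle and 1.19, 1.42, 1.28, 2.34 and 0.993 CPM in Visudyne libraries. Its groups covered the same range apart from Visudyne 12. Tekt4, at 2.01-fold, rests on 21 to 59 counts, and Tekt5, a tektin known from sperm, measured 3.995 ± 0.784 and 4.10 ± 0.322 CPM with vehicle 13 highest. Cfap52 had no single high library: Visudyne 3 (3.40 CPM), Visudyne 12 (2.83) and vehicle 4 (2.76) led, and Visudyne 15 (0.749) was lowest.

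The genes with the narrowest range of log2 CPM, Cfap36, Cfap298 and Cfap97, are among those listed as broadly expressed. This did not hold for the whole list: the range was 0.23 for Cfap36 and 0.79 for Cfap69. Rsph3a, which is not on it, had 0.32. Cfap36 measured 59.6, 56.2, 59.6, 59.4 and 51.6 CPM in vehicle and 57.2, 51.5, 57.0, 59.1 and 50.7 CPM in Visudyne libraries. Visudyne 12 was no higher than 3 of the vehicle libraries. Cfap298 measured 14.0 ± 0.795 and 13.8 ± 1.03 CPM and Cfap97 36.6 ± 2.55 and 35.0 ± 2.42 CPM, again with Visudyne 12 inside the vehicle range. In Cfap298, 42.9% of the 31-base words stand in other genes, mostly Gm49727. Of the 5 broadly expressed genes only Cfap20 was highest in Visudyne 12, with 20.7 against 14.4 to 18.4 CPM.

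**Figure D3:**
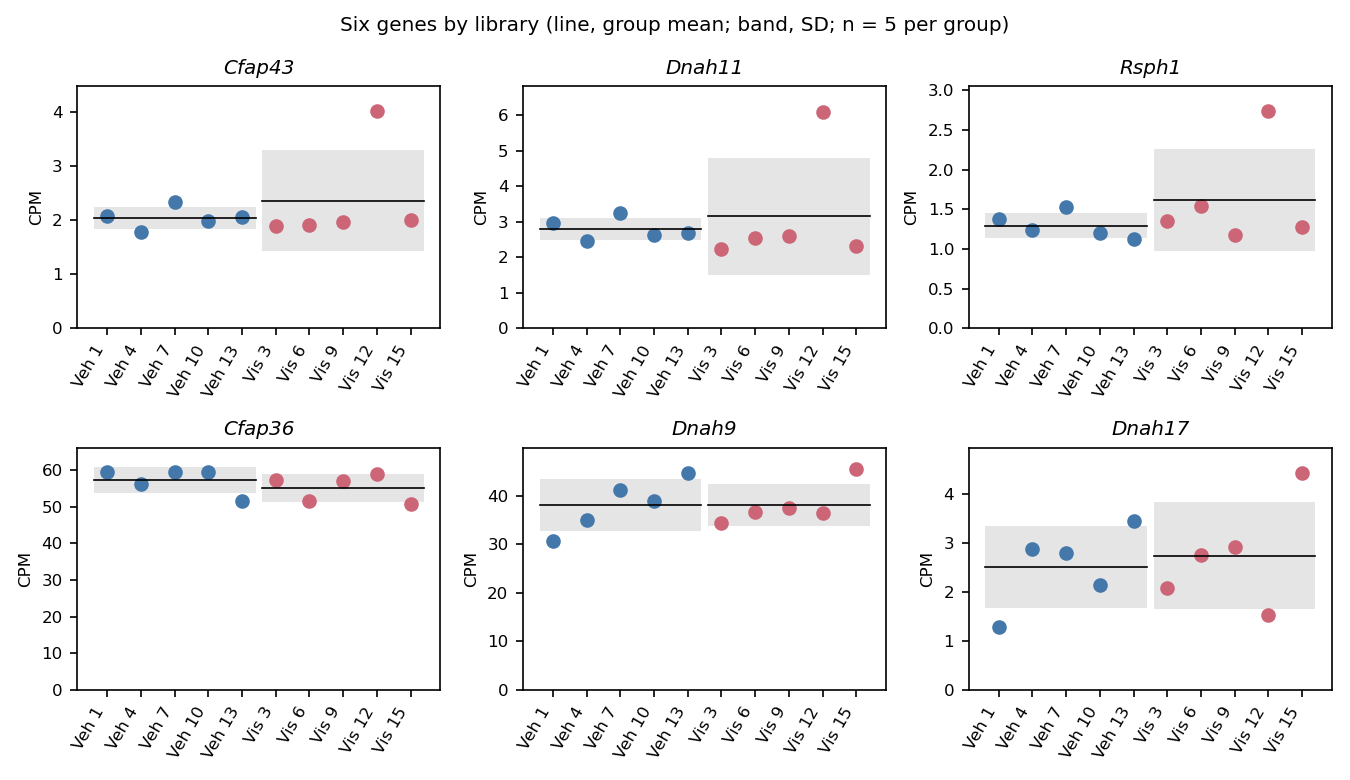
CPM of 6 genes in each of the 10 libraries, vehicle in blue and Visudyne in red, with the group mean as a line and the SD (n = 5) as a grey band. Cfap43, Dnah11 and Rsph1 in the upper row are set off in Visudyne 12 alone, at 4.02, 6.09 and 2.74 CPM. Cfap36 is nearly level, and Dnah9 and Dnah17 are highest in Visudyne 15.

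The comparison of Visudyne with vehicle gave no call among these genes. By edgeR's quasi-likelihood test with Benjamini-Hochberg adjustment over 19093 genes, 0 of 52 were higher and 0 lower at an adjusted p under 0.05, where the share over all genes was 0.021% higher and 0% lower. DESeq2 and limma voom also called 0 of the 52. At an unadjusted p under 0.05 there was 1 gene, Dnah7b, against 1.14% of all genes higher and 0.56% lower. It had a log2 fold change of 0.37 (SE 0.13, unadjusted p = 0.016, edgeR adjusted p = 0.9999), with 4.89 ± 0.546 and 6.29 ± 1.14 CPM, and was higher than every vehicle library in 4 of 5 Visudyne libraries. No gene had groups that did not overlap, against 0.319% of all genes higher and 0.115% lower. The smallest adjusted p of any of the 52 genes was 0.9999.

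Log2 fold changes of the 52 genes ran from -0.26 (Cfap299) to 0.48 (Cfap221), with a median of 0.11, and 38 were positive. Over all 19093 genes tested the median was 0.0022 and 9754 were positive. By family the medians were 0.13 for 12 Dnah, 0.12 for 3 Drc, 0.14 for 7 Rsph, 0.19 for 3 Tekt and 0.08 for 27 Cfap genes. This direction rested on Visudyne 12. Without that library 22 of 53 tested genes were positive, 31 were negative and the median was -0.04. With vehicle 7 left out as well, 23 of 51 were positive and the median was -0.0086. The index was 1.46 ± 0.0753 in vehicle and 1.54 ± 0.238 in Visudyne libraries, the larger SD being that of the group with Visudyne 12.

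**Figure D4:**
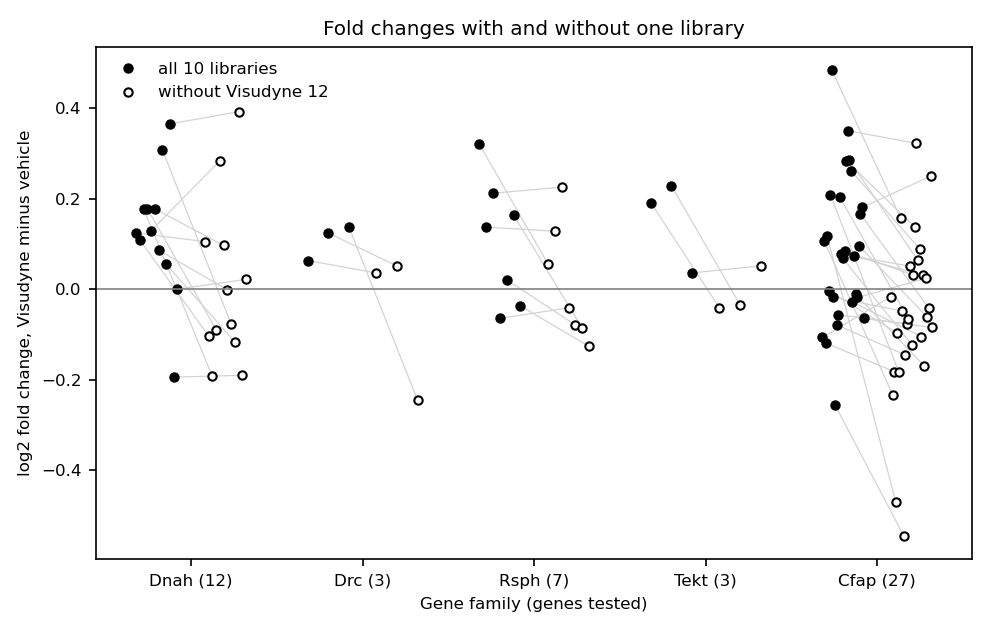
Log2 fold change (Visudyne minus vehicle) of each tested gene by family, with all 10 libraries (filled) and without Visudyne 12 (open), joined by a grey line. With all libraries 38 of 52 genes lie above 0, and without Visudyne 12 the median is -0.04.

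The genes differed in how closely they followed each other over the libraries. For each gene the Pearson correlation of its log2 CPM with the mean of the other 51 was taken over the 10 libraries, which share library and depth, so that the values are descriptions. The median was 0.64, and 0.28 without Visudyne 12. A correlation of at least 0.7 was found in 24 genes, all of them highest in Visudyne 12, and without that library in 2. The closest were Cfap43 (0.97), Dnah11 (0.95) and Rsph1 (0.92), and the farthest Dnah17 (-0.41), Cfap100 (-0.38) and Dnah8 (-0.22). Of the genes with a promoter window, GTTGCC stood in 5 of 19 with a correlation of at least 0.7 and in 11 of 23 other tested genes. The half-site was thus not more frequent in the genes that varied together. Within groups the median SD of log2 CPM was 0.30 in these genes and 0.15 over all genes tested, and 42.3% of them against 26.8% of all genes had a dispersion above the trend for their abundance. Without Visudyne 12 the median SD was still the larger in these genes, at 0.20 against 0.15. The share above the trend did rest on that library: without it the share was 19.2%, against 26.4% of all genes.

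A second order, with Visudyne 12 near an end of it, was seen in some of the genes. Dnah17, an outer arm heavy chain best known from sperm, measured 1.28, 2.88, 2.80, 2.13 and 3.45 CPM in vehicle and 2.09, 2.75, 2.92, 1.53 and 4.43 CPM in Visudyne libraries. Visudyne 15 and vehicle 13 were highest, vehicle 1 and Visudyne 12 lowest, and the groups overlapped over nearly their whole range. The same order of extremes held for the share of long noncoding RNA in the library, which was 1.66% in Visudyne 15, 1.35% in vehicle 13, 0.684% in vehicle 1 and 0.725% in Visudyne 12. It was also the order of the first principal component of all genes (41.4% of the variance). Dnah17 correlated with that component at 0.99, Cfap100 at 0.93, Cfap74 at 0.82 and Dnah9 at 0.78. Cfap300, an assembly factor, Rsph3b and Cfap58 ran the opposite way, at -0.89, -0.82 and -0.82. So did Cfap20 (-0.81) and Cfap161 (-0.75). Rsph3b, Cfap20 and Cfap161 were also highest in Visudyne 12, so this order shares genes with the pattern of that library. In all, 13 of 52 genes (25%) had a correlation with it above 0.7 in size, against 42.0% of all genes tested. The part of this component in their values was not tested.

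Other genes of the motile cilium, from lists chosen with earlier results of these data known, were described in the same way, and 0 of their members was called in either direction. Visudyne 12 was the highest library in 12 of 21 other dynein arm genes, in 13 of 19 other genes of the central pair and spokes, in 15 of 23 other genes inside the microtubules and in 7 of 15 genes of arm assembly. The list of other dynein arm genes also holds genes of the nexin-dynein regulatory complex without a Drc symbol, such as Gas8. Enkur, highest in Visudyne 12, is counted both with the central pair and spokes and with the genes inside the microtubules. The intermediate chain genes Dnaic1 and Dnaic2 also were highest in Visudyne 12, at 2.49 and 2.29 CPM against 0.929 to 1.92 and 1.22 to 2.06 CPM. Of the intermediate chain genes within the list, Wdr63 was highest there as well, at 1.53 CPM against 0.294 to 0.672. Wdr78 was highest in Visudyne 15 and Casc1 in vehicle 13. Hydin, of the central pair, held 7.45 CPM in Visudyne 12 against 2.35 to 4.41 CPM, and Spag17, also of the central pair, 2.31 against 0.708 to 1.44 CPM. Of 32 genes of the primary cilium, such as intraflagellar transport and Bardet-Biedl genes, 9 were highest in Visudyne 12. Their summed CPM was 1084 there and 990 to 1070 in the others.

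The regulators differed among themselves: of 13 tested genes listed, 4 were highest in Visudyne 12, namely Foxj1, Trp73, Myb and Rfx4. Trp73 held 2.70 CPM there against 1.59 to 2.19 in the others. Foxj1, the forkhead factor of motile ciliogenesis, measured 8.88, 5.76, 6.61, 5.48 and 5.69 CPM in vehicle and 5.87, 5.58, 7.19, 12.4 and 5.47 CPM in Visudyne libraries. Visudyne 12 was highest, vehicle 1 next, and the groups overlapped otherwise. Its correlation with a member was at least 0.7 in 12 of 52 genes, and in 1 without Visudyne 12. Rfx2 and Rfx3, RFX factors of ciliogenesis, were not set off in Visudyne 12, at 2.20 CPM (others 1.49 to 2.58) and 152 CPM (others 136 to 179). Mcidas and Gmnc, which act early when a cell commits to many cilia, were among the lowest there, at 0.306 CPM (others 0.298 to 0.713) and 2.16 CPM (others 2.24 to 3.14).

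Markers of ependymal cells were also high in Visudyne 12, while over the other libraries their order differed from that of the cilia genes. Of 19 tested markers 16 were highest in Visudyne 12, and their mean log2 CPM was 1.91 there and 0.66 to 1.31 in the other libraries. The lists are not fully separate. Dynlrb2 is also counted among the other dynein arm genes and Meig1 among the other genes inside the microtubules, and both were highest in Visudyne 12. Tmem212 held 3.26 CPM against 0.759 to 1.71, and Ccdc153 3.57 against 1.202 to 1.90. Across the other libraries the ependymal markers were highest in vehicle 1 (1.31) and vehicle 7 (1.23), while the index of the 52 cilia genes there was 1.44 and 1.58. They were lowest in vehicle 13 (0.66), where the index of the cilia genes was 1.46. That low mean, and the one of vehicle 4 (0.68), rest in part on 1 marker, Rarres2. It was at 0 CPM in these 2 libraries and at 0.209 to 2.38 CPM in the others, and a mean of log2 CPM weighs such a 0 heavily.

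Markers of tissue next to the hippocampus were mixed in Visudyne 12. Of 20 genes listed for striatum, thalamus, septum, habenula and deep cortex, 9 were highest there, and their summed CPM was 235 against 141 to 170 in the others. Zic1, a transcription factor of septum and thalamus, held 49.2 CPM against 8.18 to 17.5, and Prkcd, a thalamic kinase gene, 30.6 against 11.8 to 16.3. These 2 genes carried most of the excess in the sum. Others of the list went the other way: Lef1 (3.10 CPM, others 3.87 to 5.72) and Gpr151 (0.721 CPM, others 0.814 to 1.58) were lowest in Visudyne 12. Of 12 genes of neuroblasts and dividing cells, 7 were highest in Visudyne 12, with Sp8 at 4.90 CPM against 1.29 to 1.68 and Eomes at 1.53 against 0.272 to 0.819. The division genes of that list were low there: Cdk1 was lowest (0.252 CPM, others 0.287 to 0.586), and Mki67 and Top2a were 0.731 and 0.857 times the mean of the others. Hippocampal markers were not set off in Visudyne 12: 0 of 15 were highest there, and their sum of 1412 CPM lay within the range of the others, 1332 to 1588. The part of these tissues in the level of the cilia genes was not tested.

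Choroid plexus markers, of the ciliated epithelium that makes cerebrospinal fluid, were highest in vehicle 7. Their mean log2 CPM was 2.18 there, 1.498 in Visudyne 12 and 1.45 in Visudyne 15. Ttr, its most abundant secreted product, held 179 CPM in vehicle 7, 23.3 in Visudyne 12, 27.2 in Visudyne 15 and 4.48 to 16.1 CPM in the other 7. The sum of 22 tested markers was 358 CPM in vehicle 7 and 142 to 225 in the other 9. By this sum Visudyne 12 (163 CPM) lay below Visudyne 15 (225), Visudyne 3 (178) and vehicle 4 (178). A large part of these sums was Tmem72, at 83.5 CPM in Visudyne 15, 36.4 in Visudyne 3, 47.6 in vehicle 4 and 27.7 in Visudyne 12. The order by sum therefore depends much on that gene. Folr1 was high in both libraries, at 1.47 CPM in vehicle 7 and 1.06 in Visudyne 12 against 0.388 to 0.573. Of the 22 tested markers, 3 were highest in Visudyne 12. These were Otx2, a transcription factor of this epithelium (1.19 CPM, others 0.153 to 0.894), and Calml4 and Prlr at 2.85-fold and 1.60-fold the others. Tmem72 and Aqp1 fell below the mean of the other libraries there, at 0.560 and 0.638 times it. Kl was 0.953 times that mean. It alone of the list had an unadjusted p under 0.05, and was lower with Visudyne (log2 fold change -0.23, SE 0.084, edgeR unadjusted p = 0.017, edgeR adjusted p = 0.9999). Vehicle 7 had the second-highest cilia index, 1.58, but was the highest library in 1 of the 52 genes only. Fibroblast markers of the meninges were not set off in Visudyne 12, which was highest in 0 of 20, with a sum of 436 CPM (others 234 to 734).

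**Figure D5:**
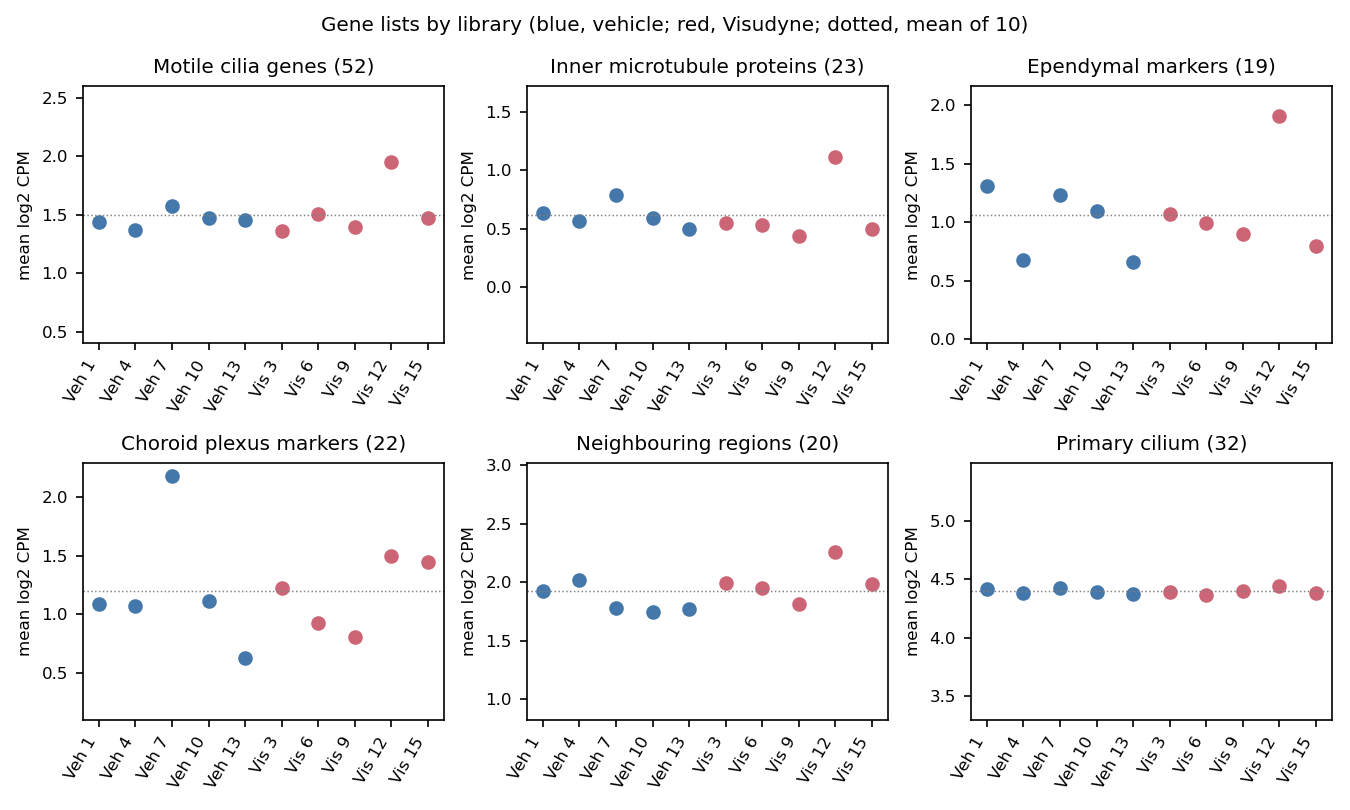
Mean log2 CPM per library of 6 gene lists, vehicle in blue and Visudyne in red, with the number of tested genes in each title and the mean of the 10 libraries dotted. All panels span the same height of 2.2 log2 units. Visudyne 12 is the highest point for motile cilia genes (1.95), proteins inside microtubules (1.12), ependymal markers (1.91) and neighbouring regions. It is also the highest for the primary cilium, by little (4.44, others 4.37 to 4.42). Vehicle 7 is the highest for choroid plexus markers (2.18).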

How the data were processed

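Per the labels' protocols, RNA was extracted with the RNeasy mini kit and the libraries were stranded (TruSeq, total RNA). The deposited table holds estimated counts per gene, whole numbers, which the authors made with Salmon after FastQC against mm10, per the submitters' processing notes. For versions and the annotation release, the sources used here give nothing. Of 28871 identifiers, 28564 matched GENCODE M21, which gave symbols, positions and exon lengths.

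The 10 libraries were compared as labelled, 5 Visudyne against 5 vehicle, with edgeR 4.0.16 in R 4.3.3: default filter on low counts, TMM scaling, quasi-likelihood F-test and Benjamini-Hochberg adjustment over 19093 genes with a threshold of 0.05. The common dispersion was 0.0214. Log2 CPM values used a prior count of 2. No 2 libraries agreed within sampling noise, since the chi-square per degree of freedom was 9.63 to 67.7 over 45 pairs. Alternatives were other scalings and filters, DESeq2 1.42.0, limma voom (limma 3.58.1), and leaving out each library. Leaving out Visudyne 12 together with vehicle 7 was chosen after the data were seen. The script was tested on simulated data.

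The members and the gene lists were chosen with earlier results of these data known. The genes named by rule were, per family, the 3 of highest level per length and the 2 of smallest p, the 5 of widest and 3 of narrowest range, the 3 closest to and 3 farthest from the others by correlation, near-identical copies, and set markers. The rule also took the 3 genes of smallest p in each list, of which those that bear on the cilia genes are given. Other genes named in the text were chosen after their values were seen.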

Additional observations from a re-analysis of the deposited data

Results flagged for a closer look

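In 106 groups of 5 values, 23 held a library set apart from the others of its group by Dixon's criterion (gap over range above 0.71), and 17 of the 23 were Visudyne 12. Chance sets apart about 1 group in 20, but the groups here share genes and libraries and some genes were named for a wide range, so that rate is no yardstick for them. Among the 52 tested cilia genes, 14 (26.9%) had Visudyne 12 set apart, against 1.78% of all genes tested.

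Among the named cilia genes, Visudyne 12 was set apart high in Cfap43 (4.02 CPM), Dnah11 (6.09), Cfap54 (11.7), Rsph1 (2.74), Drc7 (3.21), Tekt4 (1.06) and Cfap221 (0.577). Vehicle 10 was set apart in Cfap221 as well (0.356 CPM), and Visudyne 15 in Dnah9 (45.4 CPM). The mean log2 CPM of the 52 genes was set apart in Visudyne 12 (1.95), as was that of other dynein arm genes (1.71), of other genes inside the microtubules (1.12) and of ependymal markers (1.91). In vehicle, library 7 was set apart in other genes of the central pair and spokes (0.80) and in arm assembly genes (1.27).

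Of genes outside the symbol rule, Visudyne 12 was set apart in Foxj1 (12.4 CPM), Tmem212 (3.26), Ccdc153 (3.57), Hydin (7.45), Spag17 (2.31) and the choroid plexus gene Folr1 (1.06). Vehicle 7 was set apart in Ttr (179 CPM) and Folr1 (1.47).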

How the results depend on the processing

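No cilia gene was called under any of the 17 alternatives of the fit. The count of all genes called higher, 4 by edgeR, was 2 with upper-quartile scaling, 18 with DESeq2, 0 without both Visudyne 12 and vehicle 7, and 0 to 4 with 1 library left out (0 without vehicle 7, Visudyne 3 or Visudyne 6). The count called lower was 0, and 0 to 1 with 1 library left out. The index of Visudyne 12 lay 0.45 above the mean of the 10 libraries, and 0.24 above it as the log2 of summed CPM. In such a sum the genes of highest CPM weigh most. Hydin had a log2 fold change of -0.011 with limma voom.

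With Visudyne 12 and vehicle 7 both left out, 16 of 51 cilia genes changed sign. Among the genes named by rule, the log2 fold changes that did were Dnah5 -0.0088, Drc7 -0.055, Rsph3b -0.087, Tekt5 -0.027, Tekt4 -0.048, Cfap206 -0.15, Cfap43 -0.015, Dnah11 -0.14, Ttr 0.46, Foxj1 -0.10, Tmem212 -0.24, Ccdc153 -0.13, Hydin -0.18 and Spag17 -0.17. With 1 library left out, the range crossed 0 in 30 of 52 cilia genes, of which 22 were lowest without Visudyne 12, such as Cfap161 (-0.47 to 0.29). Among the genes named by rule, such ranges were lowest without Visudyne 12 for Cfap298 (-0.048 to 0.018), Dnah5 (-0.00076 to 0.14), Drc7 (-0.25 to 0.33), Rsph9 (-0.13 to 0.0036), Rsph3b (-0.079 to 0.064), Tekt1 (-0.041 to 0.30), Tekt4 (-0.034 to 0.41), Dnah6 (-0.076 to 0.53), Cfap206 (-0.18 to 0.38), Cfap43 (-0.066 to 0.27), Dnah11 (-0.19 to 0.28), Dnah7a (-0.12 to 0.18), Foxj1 (-0.10 to 0.31), Tmem212 (-0.29 to 0.37), Ccdc153 (-0.17 to 0.34), Hydin (-0.25 to 0.24), Spag17 (-0.17 to 0.38) and Folr1 (-0.70 to 0.13). They were lowest without Visudyne 15 for Dnah9 (-0.075 to 0.074), Dnah17 (-0.11 to 0.28), Cfap100 (-0.23 to 0.0052), Rfx3 (-0.098 to 0.010) and Ttr (-1.82 to 0.65), and without vehicle 7 for Tekt5 (-0.042 to 0.13).

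No paired analysis was possible because the groups share no sample numbers and the labels match no samples across groups. Low counts limit genes such as Cfap73, with 7 to 17 per library.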

Other observations

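S100a11, a calcium-binding protein listed as an ependymal marker, did not follow the cilia genes. Vehicle libraries held 0.319, 0.367, 0.397, 0.336 and 0.348 CPM, and Visudyne libraries 0.518, 0.628, 0.540, 0.505 and 0.627 CPM. The groups did not overlap, and Visudyne 12 was the lowest of its group. The log2 fold change was 0.67 (SE 0.18, edgeR adjusted p = 0.9999). Maats1, of the radial spoke region, stood at 2.17 ± 0.259 CPM in vehicle against 2.79 ± 0.398 CPM with Visudyne, with overlap between Visudyne 3 and vehicle 7 (log2 fold change 0.36, SE 0.13, edgeR adjusted p = 0.9999). In both genes at least 1 other Visudyne library was higher than Visudyne 12.

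Col1a1, a collagen of fibroblasts, was the only gene of the lists that edgeR called. It rose from 8.42 ± 2.30 to 19.04 ± 2.47 CPM, a log2 fold change of 1.18 (SE 0.16, edgeR adjusted p = 0.0485), and was higher in 5 of 5 Visudyne libraries than in any vehicle library. The call was lost in 8 of the 10 fits that left out 1 library, with an edgeR adjusted p of up to 0.28 (without vehicle 7), and the adjusted p was 0.34 without vehicle 7 and Visudyne 12. In Visudyne 12 it measured 16.1 CPM, the lowest of its group.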
